A study of Mus musculus with 8 samples.

Results

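The genes described here encode the nuclear subunits of respiratory complexes II to V, measured by RNA sequencing in mouse ventricle. They were chosen by gene symbol alone: Sdha to Sdhd for complex II, the Uqcr genes with Cyc1 and Cycs for complex III, the Cox4 to Cox8 genes for complex IV and the Atp5 genes for complex V. The rule found 49 of the 38293 genes in the count table, of which 4 belonged to complex II, 10 to complex III, 18 to complex IV and 17 to complex V. It left out 7 pseudogenes. A filter on low counts passed 47 of the 49.

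The study compared 4 heterozygous samples, with the genotype PKP2 c.1755A/WT in the labels and called a deletion in the series title (HET), with 4 wild-type samples of genotype PKP2 WT/WT (WT). Pkp2 encodes plakophilin 2, a protein of the desmosome, the junction that ties heart muscle cells together, and the series is about loss of desmosomal protein in arrhythmogenic cardiomyopathy. All 8 samples were mixed left and right ventricle at 8 weeks of age, and the labels used here name neither a strain nor a treatment. The sample titles all differ in their letters and digits, but no word in the labels says that each sample came from an animal of its own. The p-values therefore measure only the spread between these 8 samples, which may be technical.

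The respiratory chain passes electrons from NADH and succinate to oxygen and stores the energy as a proton gradient across the inner mitochondrial membrane. Complex II oxidises succinate, complex III passes the electrons to cytochrome c, complex IV (cytochrome c oxidase) hands them to oxygen, and complex V (ATP synthase) spends the gradient to make ATP. The heart is among the tissues richest in these complexes, and several small subunits of complex IV exist in it as a heart and muscle isoform beside an isoform made in most tissues.

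Total counts were 32397302 to 41234883 per library. Pkp2 itself was measured at 97.3 ± 7.21 CPM (the count scaled to the TMM-adjusted library size; SD, n = 4) in HET and 163 ± 9.60 CPM (n = 4) in WT, with no overlap between the groups, so each library matched its label. The 9 cardiomyocyte markers summed to 89214 to 93274 CPM in HET and 83597 to 89871 CPM in WT and were high in every library. The summed levels of 6 endothelial markers were 1229 to 1406 CPM in HET and 1216 to 1460 CPM in WT, and of 6 fibroblast markers 657 to 815 and 703 to 801 CPM. In bulk tissue, fewer cells of a type and less RNA per cell cannot be told apart.

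The isoforms of complex IV gave the widest contrasts among these genes. Stretches upstream of the starts of some of them are shown. Cox7a1 and Cox8b differ there from their partners Cox7a2 and Cox8a in CpG count, a feature that the choice of members did not use. Each stretch runs from 250 to 51 bases before the RefSeq start in build GRCm38.p6, 5′ to 3′ on the gene's strand, with each CpG in capitals.
Cox6a1 (chr5:115349009-115349208, minus strand): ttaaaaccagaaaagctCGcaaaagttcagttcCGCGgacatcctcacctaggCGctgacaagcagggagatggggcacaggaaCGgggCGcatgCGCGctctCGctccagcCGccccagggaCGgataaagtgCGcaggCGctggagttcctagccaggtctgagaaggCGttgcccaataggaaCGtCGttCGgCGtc
Cox7a2 (chr9:79759904-79760103, minus strand): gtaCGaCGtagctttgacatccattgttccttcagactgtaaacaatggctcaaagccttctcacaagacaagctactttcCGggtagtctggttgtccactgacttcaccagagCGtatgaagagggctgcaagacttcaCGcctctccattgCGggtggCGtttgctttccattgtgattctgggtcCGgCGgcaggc
Cox8a (chr19:7217667-7217866, minus strand): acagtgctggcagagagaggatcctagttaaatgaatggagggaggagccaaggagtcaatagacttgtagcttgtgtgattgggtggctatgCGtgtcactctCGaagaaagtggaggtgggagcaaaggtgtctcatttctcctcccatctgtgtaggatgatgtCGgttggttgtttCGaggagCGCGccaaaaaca
Cox7a1 (chr7:30183921-30184120, plus strand): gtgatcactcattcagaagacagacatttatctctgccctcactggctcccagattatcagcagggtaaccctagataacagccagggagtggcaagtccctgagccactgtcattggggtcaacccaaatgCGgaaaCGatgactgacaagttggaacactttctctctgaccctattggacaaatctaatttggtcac
Cox8b (chr7:140900497-140900696, minus strand): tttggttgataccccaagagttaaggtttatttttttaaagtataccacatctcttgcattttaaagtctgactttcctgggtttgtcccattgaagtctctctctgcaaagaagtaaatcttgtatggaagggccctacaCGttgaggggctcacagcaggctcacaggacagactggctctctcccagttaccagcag

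In these stretches of 200 bases the isoforms made in most tissues held 18 CpG (Cox6a1), 9 (Cox7a2) and 6 (Cox8a). The heart and muscle isoforms held 2 (Cox7a1) and 1 (Cox8b). Over the whole RefSeq window of 300 bases, which runs on to 50 bases past the start, the counts were 32 for Cox6a1, 20 for Cox7a2, 19 for Cox8a, 7 for Cox7a1 and 2 for Cox8b. All 32851 windows in the table had a median of 7 CpG, with quartiles of 3 and 20, so Cox7a1 sat at the median of all windows and Cox8b below the lower quartile. Cox6a2, the heart and muscle partner of Cox6a1, had no window in the table. Other complex IV windows did not all divide by tissue. Cox7b held 5 CpG, fewer than Cox7a1, while its testis isoform Cox7b2 held 10. The testis isoform Cox6b2 held 10, beside 17 for Cox6b1. Cox7c, Cox7a2l, Cox5b and Cox5a held 14, 19, 27 and 35.

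The windows were searched on both strands for GCGCANGC, the core of the NRF1 motif, which 9.95% of all windows hold, and for CCGGAAG, an ETS core, which 8.86% hold. The Cox6a1 window held 3 matches to the NRF1 core, 2 of them overlapping, and 1 to the ETS core, and the Cox8a window held 2 matches to the ETS core. The Cox7a1, Cox7a2 and Cox8b windows held neither. AAGGTCA, the core bound by oestrogen-related receptors (4.72% of all windows), and AANATGGC, a YY1 core (6.05%), had no match in any of these 5 windows. Only 37 of the 49 genes, 75.5%, had a window, so no share of windows with a motif is given over the set. A match is a description of the letters and not of a bound site.

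The 3 heart and muscle isoforms were the more abundant members of their pairs in all 8 libraries. Levels between genes are given as RPKM, CPM divided by transcript length in kilobases. Cox6a2 was at 2186 RPKM over the 8 libraries and Cox6a1 at 126 RPKM, a 17.4-fold ratio, and Cox6a2 made up 94.4 to 94.9% of the pair in HET and 94.1 to 94.9% in WT. Cox8b, at 1221 RPKM, was 6.53-fold above Cox8a, at 187 RPKM, and made up 86.6 to 87.9% of the pair in HET and 85.7 to 87.7% in WT. The narrowest of the 3 contrasts was Cox7a1 over Cox7a2, at 1637 and 451 RPKM, a 3.63-fold ratio, with Cox7a1 at 77.8 to 79.8% of the pair in HET and 77.5 to 79.4% in WT. HET and WT ranges overlapped in each of the 3 pairs.

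The other isoform pairs were dominated by the general form. Cox4i2, an isoform known from lung and from its response to oxygen, was at 0.505 to 0.639% of the Cox4i pair in HET and 0.632 to 0.657% in WT, against Cox4i1 at 1828 RPKM. Cox6b2, a testis isoform, was at 0.0868 to 0.157% of the Cox6b pair in HET and 0.119 to 0.187% in WT. The remaining testis isoforms were close to or at 0: Cox7b2 had 1 to 7 counts per library and Cox8c had 0 in all 8, which allows up to 0.0926 CPM in the smallest library, for counting error only. The plot of isoform levels shows the 5 pairs by library.

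**Figure D1:**
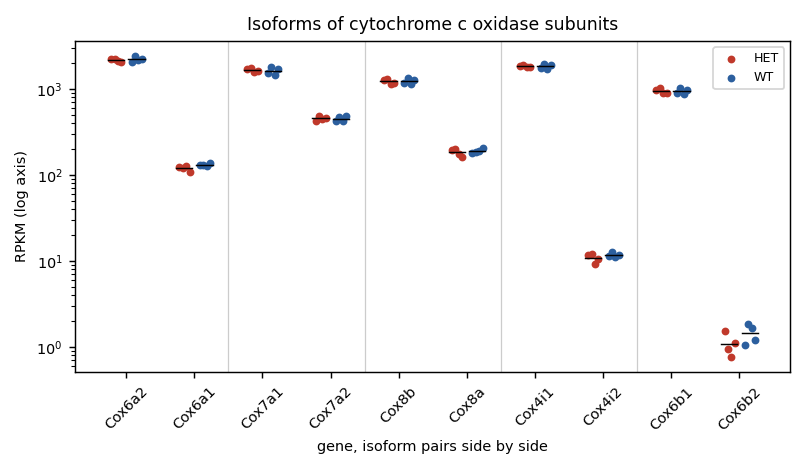
RPKM (log axis) of the 5 isoform pairs of complex IV subunits in 4 HET (red) and 4 WT (blue) libraries, with 1 point per library and a bar at the group mean. Cox6a2, Cox7a1 and Cox8b lie above Cox6a1, Cox7a2 and Cox8a in every library, and the red and blue points of each gene lie side by side.

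The ratio of isoforms within a library does not depend on how libraries are scaled, and was compared between the genotypes for 7 pairs. In mean log2 ratio, HET minus WT was 0.08 for Cox6a2 over Cox6a1, 0.02 for Cox7a1 over Cox7a2 and 0.07 for Cox8b over Cox8a. The two-sided exact permutation p-values for these pairs were 0.257, 0.6 and 0.371. The lowest p of the 7 was 0.0857, for Cox4i2 over Cox4i1, whose mean log2 ratio was 0.14 lower in HET (-7.45 ± 0.155, SD, n = 4, against -7.32 ± 0.0278, n = 4; exact permutation test, adjusted p over the 7 pairs 0.520). That difference was -0.06 without HET replicate 3, which had the lowest Cox4i2 of the 8 libraries. The design of 4 against 4 cannot give a p below 0.0286. Cox6b2 over Cox6b1 differed by -0.38 (exact permutation p 0.171), on a Cox6b2 level of 17 to 43 counts per library. None of the pairs passed the test.

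The proton ring of ATP synthase is built from subunit c, which 3 genes encode with the same mature protein. Atp5g3 was at 1862 RPKM, Atp5g1 at 137 RPKM and Atp5g2 at 43.0 RPKM. The order of the 3 was the same with either length, but the ratio of Atp5g1 to Atp5g3 was 0.0734 with the length of the longest principal transcript and 0.213 with the length of all annotated exons. Between genotypes the log2 ratio of Atp5g1 to Atp5g3 differed by 0.03 (exact permutation p 0.571) and that of Atp5g2 to Atp5g3 by 0.08 (exact permutation p 0.343).

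Together the 49 genes held 3.53 to 3.71% of all counts in HET and 3.46 to 3.82% in WT. Complex V took 1.86 to 1.94% in HET and 1.79 to 1.99% in WT, complex IV 0.733 to 0.80% and 0.740 to 0.828%, complex III 0.613 to 0.650% and 0.616 to 0.665%, and complex II 0.321 to 0.334% and 0.307 to 0.343%. For each complex the WT range enclosed or overlapped the HET range. The catalytic subunits Atp5b (beta) and Atp5a1 (alpha) alone gave 29.8 to 31.1% of the member counts in HET and 29.1 to 30.5% in WT.

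By level per length, Atp5b led the set at 3052 RPKM, followed by Cox6a2 and Atp5a1 (2034 RPKM), with Cox5a at 1309 RPKM also in the upper part. The median over the tested genes of a complex was 449 RPKM for complex II, 611 for complex III, 574 for complex IV and 652 for complex V. Within complex II, Sdhb, the iron-sulphur subunit, was at 723 RPKM, the flavoprotein Sdha at 527 RPKM, and the membrane anchors Sdhd and Sdhc at 371 and 138 RPKM. Within complex III the core proteins Uqcrc1 and Uqcrc2 were at 927 and 522 RPKM, the Rieske protein Uqcrfs1 at 613 RPKM and cytochrome c1 (Cyc1) at 637 RPKM, while the carrier cytochrome c (Cycs) was at 46.3 RPKM. With the length of all annotated exons the order changed, with Cox6a2 first at 2186 RPKM, Atp5a1 at 1603 RPKM and Atp5b at 1380 RPKM.

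A few genes had very low counts or stood at the edge of the rule. Atp5l, subunit g of ATP synthase, had only 35 to 68 counts per library. It has 3 pseudogenes in the table, at 1 to 16 counts, and reads shared between near-identical copies may have been split or dropped, so its value is uncertain; this was not tested. Cox7a2l, known for joining complexes III and IV in supercomplexes (93.3 RPKM), and Atp5s, known as coupling factor B (12 RPKM), match by symbol without being core subunits. Usmg5, a small ATP synthase subunit, is outside the rule by its symbol, and its log2 fold change was 0.03 (SE 0.064).

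The genotypes were then compared gene by gene. None of the 47 tested genes was called by edgeR's quasi-likelihood test at a Benjamini-Hochberg adjusted p of 0.05 over the 14567 genes tested, and the lowest adjusted p among them was 0.770. The background was also near none: 1 gene, Pkp2, was called, 0.00686% of those tested (log2 fold change -0.74, SE 0.065, adjusted p 0.00376). At an unadjusted p of 0.05, 1 of the 47 passed (Sdhc, higher in HET), against 6.38% of all genes tested. DESeq2, which called 14 of the 14567 genes, and limma-voom, which called 1, each called 0 of the 47, and with each of them 1 passed at that unadjusted level. The groups did not overlap for 1 of the 47 (Cox6a1, HET below), against 3.78% of all genes tested, so this count was not above the background.

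Fold changes were small and their intervals narrow. The 44 genes with at least 10 CPM in every library had log2 fold changes of -0.12 to 0.13, which is 91.9 to 109.8% of the WT level. Across these 44 the bounds of the 95% intervals ran from 84.3 to 120.6% of WT. Of the 47 intervals, 46 included 0, and that of Sdhc had its lower bound at 0.00. The median log2 fold change of the 47 was 0.01, beside -0.00 for all genes tested and 0.04 for the 1371 genes at 100 CPM or more. By sign, 28 were positive and 19 negative. Without TMM scaling, which shifts all genes alike, 10 were positive and the median was -0.03, beside -0.05 for all genes tested.

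**Figure D2:**
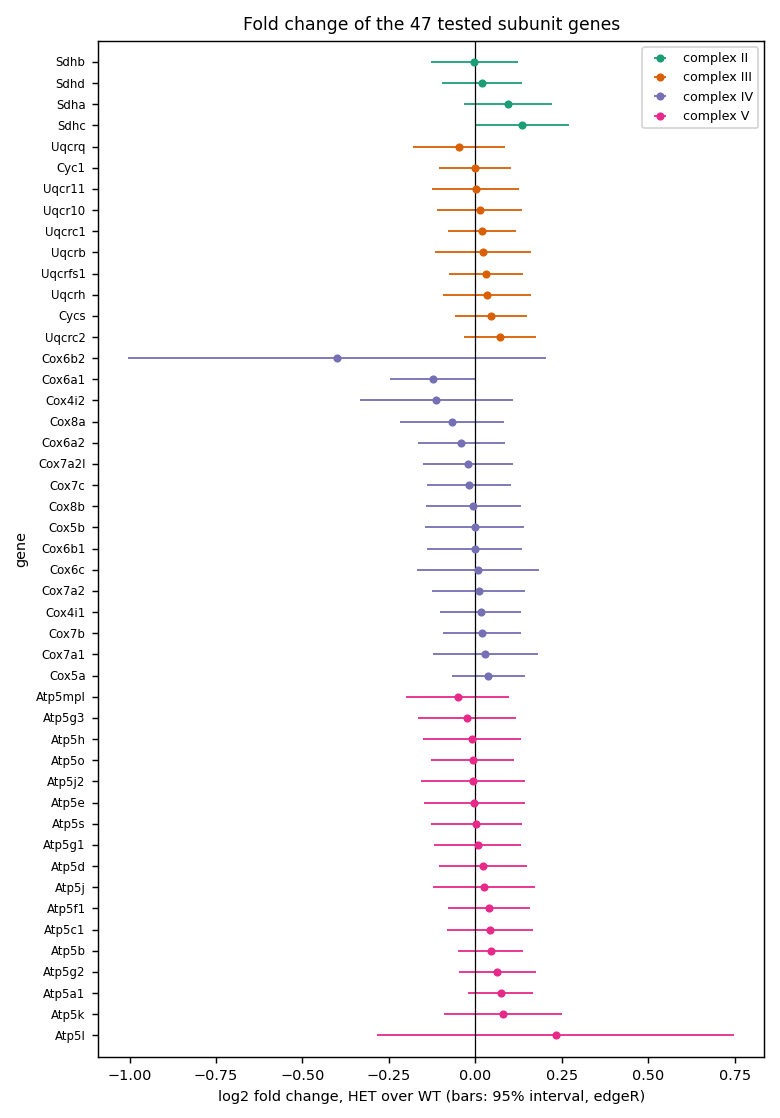
Log2 fold change of the 47 tested genes, HET over WT, with 95% intervals from the edgeR fit, coloured by complex and sorted within each. Points lie on both sides of 0 in all 4 complexes, and the interval of Sdhc alone excludes 0; Cox6b2 and Atp5l, at under 2 CPM, have the widest intervals.

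In complex II, 0 of 4 genes were called and the median log2 fold change was 0.06. Sdhc, a membrane anchor that helps to hold the haem and the quinone site, was at 466, 455, 450 and 459 CPM in HET replicates 1 to 4 and at 408, 471, 399 and 388 CPM in WT replicates 1 to 4. All HET values lay above 3 of the WT values, and WT replicate 2 was the highest of the 8. Its log2 fold change was 0.13 (SE 0.061, edgeR adjusted p 0.770), and 0.20 without WT replicate 2. Sdha, which carries the flavin that takes the electrons from succinate, was at 1666, 1506, 1581 and 1561 CPM in HET and 1418, 1624, 1483 and 1382 CPM in WT. Here too the groups overlapped through WT replicate 2 (log2 fold change 0.10, SE 0.058, edgeR adjusted p 0.770). Sdhb and Sdhd had log2 fold changes of -0.00 (SE 0.056) and 0.02 (SE 0.052), so the catalytic and anchor subunits did not divide by role.

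In complex III, 0 of 10 genes were called and the median was 0.02. Uqcrc1, a core protein facing the matrix, was at 1578, 1556, 1505 and 1530 CPM in HET and 1481, 1607, 1454 and 1545 CPM in WT, and the groups overlapped throughout (log2 fold change 0.02, SE 0.045). Its partner Uqcrc2 was at 1048, 986, 1004 and 1022 CPM in HET and 943, 1032, 925 and 964 CPM in WT (log2 fold change 0.07, SE 0.047, edgeR adjusted p 0.773). Every HET value was above 3 of the 4 WT values and the fourth, WT replicate 2, was among the HET values. The Rieske protein Uqcrfs1 had a log2 fold change of 0.03 (SE 0.049), the soluble carrier Cycs 0.04 (SE 0.047) and the small subunit Uqcrq -0.05 (SE 0.060). The other 5, Cyc1, Uqcr10, Uqcr11, Uqcrb and Uqcrh, lay between -0.00 and 0.03.

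In complex IV, 0 of the 16 tested genes were called and the median was -0.00. Cox6a1, the isoform of subunit 6a made in most tissues, was at 71.0, 69.5, 71.8 and 62.3 CPM in HET and 74.3, 73.8, 72.0 and 78.7 CPM in WT. The groups did not overlap, by a margin of 71.8 to 72.0 CPM, and its log2 fold change was -0.12 (SE 0.056, edgeR unadjusted p 0.0521, adjusted p 0.770). Without HET replicate 4, its lowest library, the log2 fold change was -0.07, and it was negative under each of the 17 alternatives tried. Cox6a2, the heart and muscle isoform, was at 1519, 1510, 1444 and 1388 CPM in HET and 1405, 1646, 1453 and 1524 CPM in WT, with overlap (log2 fold change -0.04, SE 0.057, edgeR adjusted p 0.899). Cox7a1 was at 662, 690, 611 and 636 CPM in HET and 604, 704, 574 and 664 CPM in WT (log2 fold change 0.03, SE 0.068), and its highest and lowest libraries were both WT.

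Among the other complex IV genes, Cox8a, the general isoform of subunit 8, had a log2 fold change of -0.07 (SE 0.068) and Cox8b one of -0.01 (SE 0.063). Cox4i2 had -0.11 (SE 0.100) at 6.72 to 9.26 CPM, and Cox4i1, its abundant partner, had 0.01 (SE 0.053). Cox6b2 had the largest value in size, -0.40, with an SE of 0.27 at 0.453 to 1.08 CPM. Cox6b1 and Cox7a2 were at -0.00 (SE 0.063) and 0.01 (SE 0.061). None of these intervals excluded 0.

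In complex V, 0 of 17 genes were called and the median was 0.02. Atp5a1, the alpha subunit of the catalytic head, was at 5175, 5148, 5201 and 5086 CPM in HET and 4733, 5189, 4808 and 4862 CPM in WT. All HET values lay above 3 of the WT values, and WT replicate 2 lay among them (log2 fold change 0.07, SE 0.042, edgeR adjusted p 0.770). Atp5b, the beta subunit that holds the catalytic sites, had a log2 fold change of 0.04 (SE 0.043), with 5833 to 6033 CPM in HET and 5498 to 6061 CPM in WT. For subunit c, the log2 fold changes were 0.01 (SE 0.057) for Atp5g1, 0.06 (SE 0.050) for Atp5g2 and -0.02 (SE 0.064) for Atp5g3. Atp5k, the small membrane subunit e, had 0.08 (SE 0.077), with WT values from 211 to 274 CPM on both sides of all HET values. The plot of CPM by library shows the same position of WT replicate 2 in several genes.

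**Figure D3:**
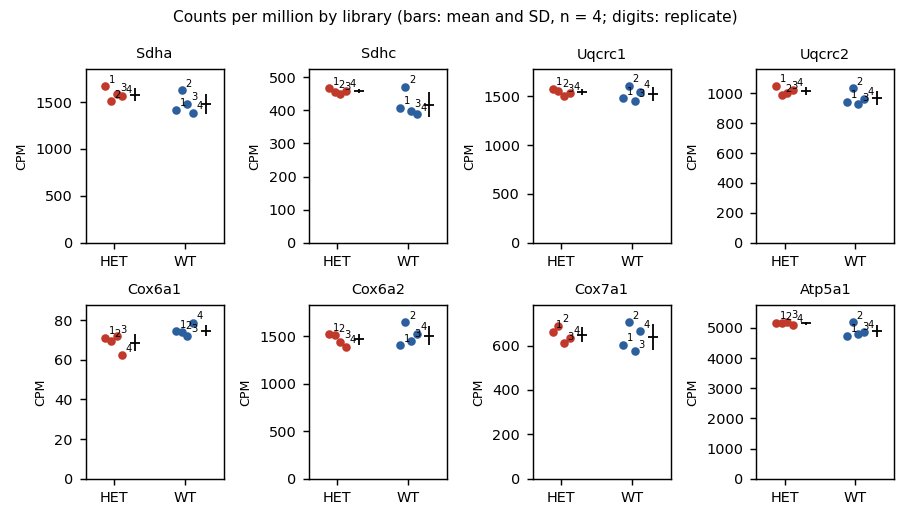
CPM (TMM-scaled, axis from 0) of 8 genes in each library, with the replicate number beside each point and the group mean and SD (n = 4) to the right. Cox6a1 is the only one of the 8 whose groups do not overlap, and WT replicate 2 is the highest WT library for all but Cox6a1.

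The 4 WT libraries spread more widely than the 4 HET libraries. The range of log2 CPM was wider in WT for 41 of the 47 genes, with a median range of 0.21 in WT and 0.13 in HET. The difference between group means was smaller than the WT range for 47 of 47 genes and smaller than both ranges for 44. WT replicate 2 was the highest of the 8 libraries for 31 of the 47 genes, 66.0% of them, against 15.6% of all genes tested and 16.4% of genes at 100 CPM or more. WT replicate 3 was the lowest for 21 (44.7%, against 14.1% of all genes tested) and WT replicate 1 for 13 (27.7%, against 11.9%). These ranks are of TMM-scaled levels. In share of all counts, members held 3.59% in WT replicate 3, above WT replicate 1 (3.46%) and HET replicates 3 and 4 (3.53 and 3.58%). As a share of counts outside the mitochondrial genome, WT replicate 3 was the lowest, at 4.20%. The 36 complex I subunits, which belong to the same chain and were not part of the set, had WT replicate 2 highest in 77.8% and WT replicate 3 lowest in 50%.

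Some other measures moved with these libraries. WT replicates 1 and 3 had the lowest sums of cardiomyocyte markers, 83597 and 84171 CPM, against 89871 CPM in WT replicate 2 and 88871 CPM in WT replicate 4. The most abundant markers dominate this sum. Myh6, Tnnt2, Tnni3, Myl2, Pln and Mb each divided the WT libraries in this way, while Actc1 and Ckm did not. Ryr2 went the other way, at 1483 and 1593 CPM in WT replicates 1 and 3 against 1357 and 1378 CPM in WT replicates 2 and 4. WT replicate 3 also stood lowest in counts from the mitochondrial genome, with 14.7% of its total where the other 7 libraries had 17.1 to 19.1%, and the highest sum of 6 macrophage markers, 213 CPM against 146 to 162 CPM. Their part in the levels of these genes was not tested.

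**Figure D4:**
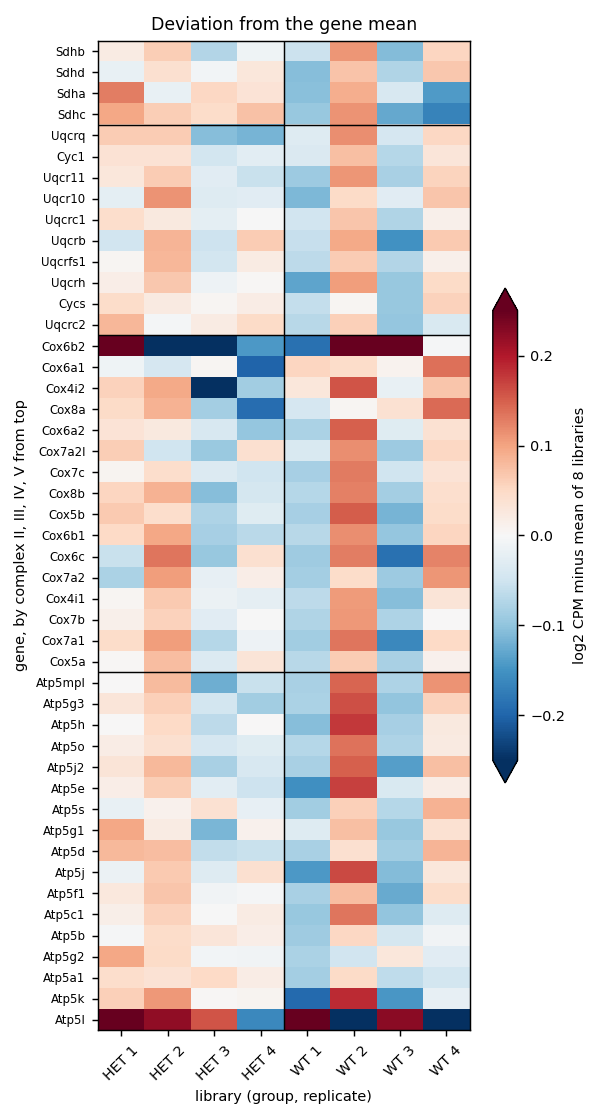
Log2 CPM of each tested gene minus its mean over the 8 libraries, by complex from top (II) to bottom (V), with the colour scale capped at 0.25. The column of WT replicate 2 is red for nearly every gene and those of WT replicates 1 and 3 are blue, while the HET columns span a narrower range for most genes.

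The comparison of genotypes moved with these libraries and with others. Without WT replicate 2 the median log2 fold change of the 47 genes was 0.05, and 41 were positive. The genes at 100 CPM or more also had a median of 0.05 in that fit. Of the 47, 6 passed an unadjusted p of 0.05 (6.15% of all genes tested did in the same fit). After adjustment, edgeR called 0 of them. Without WT replicate 3 the median of the 47 was -0.02 and 15 were positive. Without WT replicate 1 it was -0.01 and 19 were positive. The genes at 100 CPM or more were at 0.04 and 0.05 in those fits. Leaving out HET replicates 1 to 4 in turn gave 25, 20, 37 and 36 positive members, and leaving out WT replicate 4 gave 35. The sample titles carry a run of 4 digits that some samples share, with no word in the labels on its meaning. HET replicates 1, 3 and 4 and WT replicate 1 shared a run, as did HET replicate 2 and WT replicates 3 and 4, and WT replicate 2 had one of its own.

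Within the first of these sets, 3 HET and 1 WT, the median difference of log2 CPM, HET minus WT, was 0.06, with 42 of 47 genes positive, and within the second, 1 HET and 2 WT, it was 0.08, with 43 of 47 positive. With the digits as a covariate in edgeR the median of the 47 was 0.08, 43 were positive, 7 passed an unadjusted p of 0.05 (4.95% of all genes tested did in the same fit), and 0 were called (lowest adjusted p 0.966). In the same fit, 36 of 36 complex I subunits were positive, with a median of 0.06. These sets hold 1 HET or 1 WT sample each, and WT replicate 2 is in neither. Being alone with its digits, WT replicate 2 adds nothing on genotype to the covariate fit, which in that respect resembles leaving it out. In the covariate fit the median was 0.03 for the genes at 100 CPM or more and -0.0002 for all genes tested. The plot of medians under each setting shows the shifts.

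**Figure D5:**
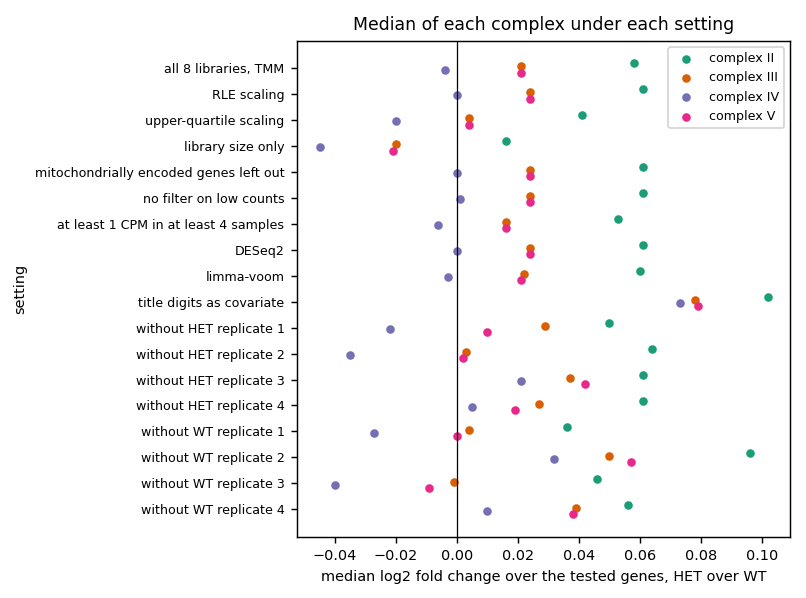
Median log2 fold change, HET over WT, of the tested genes of complexes II, III, IV and V under each setting, with the fit on all 8 libraries with TMM scaling at the top. All medians lie between -0.05 and 0.11; complex II stays above 0 in each setting shown, and complexes III, IV and V cross 0.

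Within the groups, the spread between libraries was close to that of other abundant genes. The coefficient of variation was taken in HET and in WT separately and averaged. Its median was 5.57% for the 47 genes, against 5.5% for the genes at 100 CPM or more and 9.06% for all genes tested.

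Lists of factors that build or accompany the complexes were compared in the same fit. The complex IV list includes Ndufa4 and the complex V list includes Atpif1, which are not assembly factors in the narrow sense. None of 4 complex II, 7 complex III, 25 complex IV and 6 complex V assembly factors was called by edgeR. At an unadjusted p of 0.05, 2 of them passed, against 6.38% of all genes tested. Sdhaf1, which helps to insert the iron-sulphur clusters of Sdhb, was at 16.7, 18.4, 17.7 and 16.9 CPM in HET and 20.3, 19.8, 18.6 and 22.0 CPM in WT. The groups did not overlap (log2 fold change -0.21, SE 0.066, edgeR unadjusted p 0.00879, adjusted p 0.770). Sdhaf4 had a log2 fold change of 0.09 (SE 0.085). Ttc19, a complex III factor, was at 42.1, 42.2, 42.0 and 42.6 CPM in HET and 40.9, 36.3, 38.5 and 40.8 CPM in WT. Its groups did not overlap either (log2 fold change 0.11, SE 0.051, edgeR adjusted p 0.770). The groups overlapped for every other of these factors. Of all genes tested, 3.78% had groups that did not overlap.

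Of the complex IV factors, Taco1, a translational activator of mt-Co1, had a log2 fold change of 0.18 (SE 0.070, edgeR unadjusted p 0.0258, adjusted p 0.770), and Cox19, a copper-handling factor, had -0.15 (SE 0.085). Hccs, which attaches haem to the cytochromes c and c1, had 0.07 (SE 0.045). For complex V the factors Atpaf1 and Atpaf2, which bind the beta and alpha subunits during assembly, had 0.11 (SE 0.074) and 0.04 (SE 0.048). The median was -0.02 for the complex II factors, 0.01 for complex III, 0.04 for complex IV and 0.04 for complex V.

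Among 16 regulators of mitochondrial biogenesis 0 were called by edgeR, 15 log2 fold changes were positive and their median was 0.07. Of all genes tested 7068 of 14567 were positive, and of those at 100 CPM or more 1001 of 1371. Deviations of log2 CPM from each gene's mean over the libraries were averaged over the list. The average was lowest in WT replicate 2 (-0.117) and highest in HET replicate 3 (0.126), where the members stood at 0.094 and -0.049. HET ran from -0.058 to 0.126 and WT from -0.117 to 0.039. A shared shift of the regulators was not tested. Perm1, a muscle regulator of oxidative genes, was at 495, 452, 546 and 473 CPM in HET and 433, 393, 476 and 449 CPM in WT, with overlap (log2 fold change 0.17, SE 0.072, edgeR unadjusted p 0.0404, adjusted p 0.770). Tfam, which packs and transcribes mitochondrial DNA, had 0.10 (SE 0.057). Over the 36 complex I subunits the median was 0.01, 20 were positive and 0 were called by edgeR. Of these subunits 1 passed an unadjusted p of 0.05, against 6.38% of all genes tested. Ndufs1, the largest subunit of complex I, was at 0.11 (SE 0.046, edgeR unadjusted p 0.0310, adjusted p 0.770).

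The mitochondrial genome encodes cytochrome b of complex III, the catalytic core of complex IV and parts of complex V. Of those partners, mt-Co1, the catalytic subunit of complex IV, had 1844755 to 2383298 counts per library and mt-Cytb, the cytochrome b of complex III, had 1301345 to 1845512. Their log2 fold changes were 0.12 (SE 0.080, edgeR adjusted p 0.775) and 0.03 (SE 0.101, edgeR adjusted p 0.960), and WT replicate 3 had the lowest level of both. The other 4 partners, mt-Co2, mt-Co3, mt-Atp6 and mt-Atp8, had 0 to 5 counts per library and could not be compared; the cause was not tested.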

How the data were processed

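Poly(A)-selected RNA from 8 ventricle samples, 4 HET and 4 WT, was extracted with Trizol and sequenced from stranded TruSeq libraries, per the labels' protocols. The deposited values are raw counts per gene, whole numbers that the authors had not normalised. STAR 2.4.2a, HTSeq 0.6.1 and GRCm38/mm10 are named, per the submitters' processing notes, while the annotation release and strand setting are not given in the sources used here, so overlapping genes and near-identical copies are uncertain. Identifiers were matched to GENCODE M21, which gave an entry for 36429 genes; the 1864 others held 0.143% of counts.

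The members and the lists of related genes were chosen with earlier results of these data known. Counts were filtered with filterByExpr, scaled by TMM and compared with edgeR 4.0.16 (quasi-likelihood, robust, no covariate) in R 4.3.3, with Benjamini-Hochberg adjustment over 14567 genes. Intervals are 95%. limma 3.58.1 (voom) and DESeq2 1.42.0 were alternatives, beside other scalings, filters, the title digits as a covariate and leaving out each library. The test was checked on simulated data with larger changes than those of the members, so the check does not bear on changes of their size. RPKM used the length of the longest APPRIS principal transcript. Isoform ratios (log2 CPM, prior count 2) were compared by exact permutation. Replicates were numbered in accession order and pair nothing. The lowest mean chi-square per gene between libraries of a group was 14.0, so all of them differed by more than counting error. That value does not show that each came from a different animal. Promoter windows came from RefSeq (GRCm38.p6).

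Members were named with a fold change by rule: Sdha, Uqcrc1, Cox6a2 and Cox7a1, the 4 of lowest unadjusted p in each complex, isoform pairs, members with groups that did not overlap, and the 2 of lowest p in each related list. Usmg5 and Pkp2 were named outside it, and 1 gene of the related lists is not reported here. Members not named by the rule are given by range or level, and the genes in the remarks on counting were chosen after their values were seen.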

Additional observations from a re-analysis of the deposited data

Results flagged for a closer look

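Sdhaf4, an assembly factor of complex II, was at 21.39 CPM in WT replicate 3, below the other 3 WT libraries at 26.24 to 27.17 CPM. Its gap to the nearest of them, divided by the range of the group, was above Dixon's 95% critical value. It was the only one of 92 groups of 4 that was, and chance alone gives about 1 in 20.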

How the results depend on the processing

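Under the 17 alternatives the count of called members stayed at 0, as did that of the 96 related genes tested. The median of the 47 members was 0.075 with the title digits as a covariate, and -0.02 to 0.05 when libraries were left out in turn. Of 39 named genes, 24 had the same sign under every alternative. The other 15 had log2 fold changes near 0 that changed sign, in part under scalings that shift all genes alike: the median of all genes tested was -0.00 with TMM, -0.02 with upper-quartile scaling and -0.05 with library size only. With RLE scaling, without mitochondrially encoded genes, without a filter and with DESeq2, Sdhb and Cox6b1 were at 0.00. With upper-quartile scaling Cox4i1 was at 0.00 and Cox7a2 and Atp5g1 at -0.01. With library size only, Uqcrc1 and Sdhd were at -0.02, Cox7a1, Uqcrfs1 and mt-Cytb at -0.01, Cox4i1, Cox7a2 and Atp5g1 at -0.03, and Atpaf2 at 0.00. With the title digits, Cox6a2 was at 0.03, Uqcrq at 0.02, Sdhb and Atp5g3 at 0.06, Cox8b at 0.07 and Cox6b1 at 0.08. When libraries were left out in turn, the lowest and highest values were Atp5g1 -0.02 to 0.05, Atp5g3 -0.06 to 0.03, Cox4i1 -0.02 to 0.05, Cox6a2 -0.07 to 0.00, Cox6b1 -0.04 to 0.04, Cox7a1 -0.02 to 0.08, Cox7a2 -0.02 to 0.05, Cox8b -0.04 to 0.04, Sdhb -0.04 to 0.04, Sdhd -0.01 to 0.05, Uqcrc1 0.00 to 0.05 and mt-Cytb -0.06 to 0.13. The difference in log2 ratio of Cox7a1 to Cox7a2 ran from -0.02 to 0.05. No paired analysis was possible because the replicate numbers follow accession order and pair nothing. The level of Cox4i2 over Cox4i1 was 0.00622 by transcript length and 0.0117 by the length of all exons, an alternative chosen after seeing the data, and Cox6b2 over Cox6b1 was 0.00135 and 0.000814. Depth limits Cox6b2 and Atp5l, at under 70 counts per library, while 44 members had at least 10 CPM in every library.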
